A study of Xenopus tropicalis with 6 samples.

Results

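In blastula embryos of the western clawed frog Xenopus tropicalis, 52 scarce transcripts were at 0.5 or less of their control level in every replicate pair after injection of Morpholinos against tet2 and tet3. They were chosen from 28165 gene identifiers. A member had a mean of at least 1 and under 10 CPM (the read count scaled to a library total of 1000000) over the 3 control libraries. In each of the 3 pairs of same-numbered libraries, its Tet2/Tet3 CPM divided by its control CPM, with 0.1 added to both, was at most 0.5. The 52 were 1.77% of the 2946 genes in that range of control CPM. The fall itself was therefore the criterion of choice, and the levels and fold changes of the members are given as a description.

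The study compared stage 9 embryos in 2 groups of 3 poly(A) RNA-seq libraries, each library from 50 pooled whole embryos, without a labelled strain or wild-type group. Embryos of both groups were injected at the 1-cell stage with 5 nl of Morpholino solution, so the controls carry an injected oligonucleotide too. The Control_Mo embryos received 60 ng of a standard control Morpholino, and the Tet2_Tet3_Mo embryos 30 ng of the tet2 and 30 ng of the tet3 Morpholino. The question is which transcripts differ in the blastula after injection of Morpholinos meant to block translation of both tet mRNAs.

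The TET proteins are dioxygenases that convert 5-methylcytosine in DNA to 5-hydroxymethylcytosine and further oxidised forms, a route by which methylation marks can be removed. A start-codon Morpholino is an uncharged antisense oligomer that hinders translation of its target mRNA and need not lower the mRNA itself. Around the mid-blastula transition the frog embryo starts broad transcription of its own genome while many mRNAs loaded into the egg are being degraded, so stage 9 RNA holds transcripts of both origins. The identifiers carry no gene names, and none was matched to a symbol here. The members' functions, and whether each is of maternal or embryonic origin, are not given for that reason, and the levels of tet2 and tet3 themselves were not analysed here.

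Libraries held 37973110 to 44792849 counts, so 1 CPM stood for 38.0 to 44.8 reads. Total counts and the number of genes with at least 1 count were both lower in the Tet2/Tet3 library of every pair, and the part of either in the results below was not tested. CPM by total count also placed the Tet2/Tet3 libraries slightly low as a whole, with a median log2 difference of -0.13 over the 13221 genes kept for testing. With TMM factors (trimmed mean of M values, a scaling that sets the bulk of the genes equal) this median was -0.01. With those factors the same rule held for 37 genes, of which 36 are among the 52.

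The members were lowered rather than absent. No member had 0 counts in any library, and the lowest count was 4, in a Tet2/Tet3 library (exact 95% Poisson interval 1.09 to 10.2, which covers counting error only). Summed over the 52, the level was 285.9, 228.4 and 249.9 CPM in control replicates 1, 2 and 3 and 100.2, 71.8 and 83.1 CPM in the Tet2/Tet3 replicates. All 3 Tet2/Tet3 sums lay below all 3 control sums, and replicate 1 was the highest and replicate 2 the lowest in both groups. The group means were 254.7 ± 29.1 and 85.0 ± 14.3 CPM (SD, n = 3), and the sum was 2.85, 3.18 and 3.01-fold lower in pairs 1, 2 and 3. In whole embryos, fewer cells with a transcript and less of it per cell cannot be told apart.

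**Figure D1:**
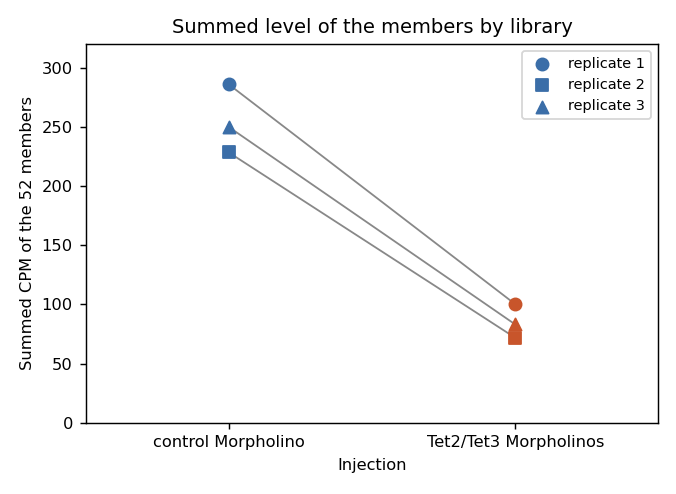
Summed CPM of the 52 members (vertical axis, from 0) in each library, by injection (horizontal axis). Marker shapes give the replicate number and lines join same-numbered libraries. The 3 control sums, 228.4 to 285.9 CPM, all lie above the 3 Tet2/Tet3 sums, 71.8 to 100.2 CPM, which follows from the rule.

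Members fell by 2.1 to 6.8-fold in mean CPM. The ratio of mean control CPM to mean Tet2/Tet3 CPM had a median of 3.02 and an interquartile range of 2.52 to 3.89, from 2.13 to 6.81. At least 3-fold falls were seen in 27 members, at least 4-fold falls in 11 and at least 5-fold falls in 7. By the rule's ratio, with 0.1 CPM added to both values, 9 members were at least 3-fold lower in every pair and 4 members at least 4-fold lower. For 47 members every Tet2/Tet3 library lay below every control library, against 24.2% of all tested genes, and this follows in large part from the rule. The mean in the Tet2/Tet3 group was under 1 CPM for 17 members, and 13 of these were under 1 CPM in all 3 of its libraries.

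Xetro.D02186 had the deepest fall among members with separate groups. It stood at 3.91, 2.46 and 3.92 CPM in control replicates 1, 2 and 3 and at 0.454, 0.372 and 0.685 CPM in the Tet2/Tet3 replicates, from raw counts of 171, 110 and 153 against 19, 15 and 26. The lowest control value was well above the highest Tet2/Tet3 value. In the group-only edgeR fit this was a 6.22-fold fall (log2 -2.64, SE 0.34, adjusted p = 0.0096). With the rule's 0.1 CPM added to both values, the fall in pairs 1, 2 and 3 was 7.25, 5.42 and 5.12-fold. The rule used the same libraries, so this p does not stand as separate support.

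Xetro.G00402 had a control mean near the lower limit of the rule, with 1.62, 1.25 and 1.46 CPM in the controls. Its Tet2/Tet3 values were 0.358, 0.223 and 0.132 CPM, which came from 15, 9 and 5 reads. The groups did not overlap, and edgeR gave a log2 difference of -2.46 with SE 0.39 and adjusted p = 0.016. With 0.1 CPM added to both values, the falls in the 3 pairs were 3.76, 4.18 and 6.73-fold. At so few reads the added 0.1 makes these falls smaller than the CPM values alone would give. With any 1 library left out other than Tet2/Tet3 replicate 1, the adjusted p of this gene was 0.056 to 0.082. For Xetro.D02186 the adjusted p rose above 0.05 only without control replicate 3, to 0.063. Both genes were chosen on the fall and then named as called members with separate groups. Neither these p values nor the separation of the groups stands as separate support.

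Another member with a deep fall, 5.85-fold in mean CPM, had even replicates, at 9.08, 8.19 and 8.25 CPM in the controls and 1.48, 1.46 and 1.42 CPM in the Tet2/Tet3 libraries. At the shallow end, the member with the smallest fall, 2.13-fold, had 4.28, 3.13 and 3.30 CPM against 2.03, 1.41 and 1.58 CPM. Both members keep the groups apart, and they differ in the size of the gap between them.

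**Figure D2:**
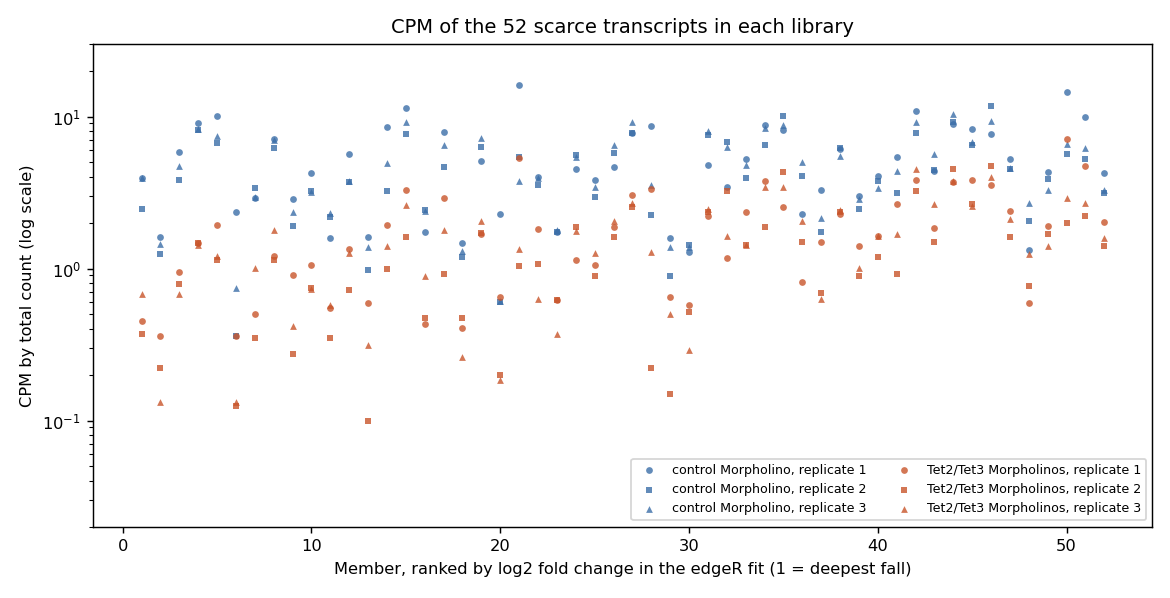
CPM by total count of each member (vertical axis, log scale) in the 6 libraries, with members ranked from the deepest to the shallowest log2 fold change (horizontal axis). Blue marks are control and orange marks Tet2/Tet3 libraries, and shapes give the replicate; the groups are separate for 47 members and overlap for 5.

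The 5 members whose groups overlapped had a high value in control replicate 1. One of them stood at 16.1, 5.38 and 3.79 CPM in control replicates 1, 2 and 3 and at 5.33, 1.04 and 1.34 CPM in the Tet2/Tet3 replicates. Its Tet2/Tet3 replicate 1 thus exceeded control replicate 3, though each library was lower than its own partner. A second had 8.60, 2.26 and 3.53 CPM against 3.34, 0.223 and 1.29 CPM. Its replicate 2 was the lowest of its group in both arms. With 0.1 CPM added to both values, pair 2 fell 7.29-fold where pairs 1 and 3 fell 2.53 and 2.61-fold. Another was at 2.36, 0.357 and 0.743 CPM against 0.358, 0.124 and 0.132 CPM, and 2 of its control values were under 1 CPM.

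The rule's limits cut through a continuous range of values. The largest ratio of any pair was over 0.45 for 21 members, and the nearest to the limit were 0.498, 0.496 and 0.494. The nearest genes outside had 0.501, 0.503 and 0.505, and 89 genes of the same control CPM, these included, had a largest ratio above 0.5 and up to 0.6. Control means of members ran from 1.15 to 9.59 CPM, while genes with the same ratios but outside the range began at 10.2 CPM above it and 0.895 CPM below it. At these depths the counting error of a single pair ratio is often as wide as its distance from the limit. Among the 156 ratios of a member in a pair, 95 had an exact (Clopper-Pearson) 95% upper limit of 0.5 or less, without the added 0.1. For 17 members this held in all 3 pairs, and the highest upper limit of any member was 0.991.

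Members were found through the whole range of control CPM. Of genes at 1 to under 2 CPM, 8 of 792 (1.01%) were members, of those at 2 to under 5 CPM 22 of 1110 (1.98%), and of those at 5 to under 10 CPM 22 of 1044 (2.11%). The added 0.1 weighs most on the lowest class. At 10 CPM or more, the same ratio rule held for 191 of 8671 genes (2.20%), with a median fall of 2.96-fold in mean CPM beside 3.02-fold in the members. At least 4-fold falls made up 21.2% of the members and 25.7% of those 191 genes. No test was made of these differences, since both sets were chosen on the fall. CPM is not scaled to transcript length, so it places genes in a range of reads and not of molecules.

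The mirror rule, a ratio of at least 2 in every pair, was met by 1 gene at 1 to under 10 CPM. The rule for falls was met by 52. Both rules set the range on the control mean, so they are not exact mirrors. A gene that rose from a control mean under 1 CPM was not counted. In contrast, 17 members fell to a Tet2/Tet3 mean under 1 CPM. With TMM factors, which remove the overall shift, the counts were 37 falls and 2 rises. At a control mean of 10 CPM or more, CPM by total count gave 191 falls and 3 rises. The imbalance was thus not particular to scarce transcripts, and the part of the limits on the control mean in it was not tested. In the group-only edgeR fit, 6.01% of all tested genes were called higher and 5.48% lower at an adjusted p under 0.05. The 1 gene that rose at 1 to under 10 CPM by total count, Xetro.I01996, was singled out after its values were seen. It stood at 1.26, 1.85 and 1.49 CPM in the controls and 2.65, 4.16 and 3.48 CPM in the Tet2/Tet3 libraries.

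In edgeR's quasi-likelihood test over all 13221 tested genes, 38 of the 52 members were called lower at an adjusted p under 0.05 (Benjamini-Hochberg, n = 3 per group), where 5.48% of all tested genes were called lower. All 52 passed the filter on low counts. The rule and the test use the same contrast, so nothing is read from this share. The median log2 fold change was -1.47 over the members and -0.01 over all tested genes. The count moved with single libraries: it was 13, 8 and 4 without control replicates 1, 2 and 3, and 42, 14 and 5 without Tet2/Tet3 replicates 1, 2 and 3. The share of all tested genes called lower moved with it, at 1.71, 1.31 and 0.674% without the 3 controls in turn and 9.86, 1.80 and 0.627% without the 3 Tet2/Tet3 libraries. The median log2 fold change of the members stayed between -1.58 and -1.42 in these 6 fits. With the replicate number as a block, 52 of 52 were called lower, against 23.8% of all tested genes.

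The 14 members without a call varied more between replicates than those with one. Their control libraries had a median coefficient of variation of 34.4%, from 23.7 to 92.0%, against 14.1% in the 38 called members, where it ran from 1.74 to 48.4%. The median fall in mean CPM was 2.85-fold in the 14 and 3.21-fold in the 38. Of the 14, 12 also differed between replicate numbers in the test described below, as did 6 of the 38, where 46.3% of all tested genes did. A model without the block counts such differences as error, so the same variation helps decide which members lack a call.

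To measure the fall in libraries the choice had not used, genes were chosen by the same rule on 2 pairs, with the control mean taken over those pairs only, and then read in the third. Without pair 1 the rule chose 128 genes, and 52 of these (40.6%) were at a ratio of 0.5 or less in pair 1, against 4.64% of all 2889 genes of the same control CPM. Without pair 2 it chose 77, of which 51 (66.2%) were at 0.5 or less in pair 2, against 9.35% of 2919 genes. Without pair 3 it chose 76, of which 51 (67.1%) were at 0.5 or less in pair 3, against 7.16% of 2949 genes. In each of the 3 readings the share was several times the background share. The genes that passed in the third pair are nearly all members, 49 of the 52, 49 of the 51 and 50 of the 51. Their number thus restates the rule, and only their share among the chosen genes is read. The 3 choices share most of their genes and libraries, so they are not independent of each other, and no p is given.

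The fall in the unused pair was smaller than in the pairs that chose the genes. The median ratio of the chosen genes was 0.533 in pair 1, 0.406 in pair 2 and 0.403 in pair 3. Each gene's mean ratio over the 2 choosing pairs had a median of 0.406, 0.375 and 0.376 in turn. A mean over 2 pairs is not the same measure as 1 pair's ratio, and the pairs themselves differ. The size of these gaps is therefore not read further. Over all genes of the same control CPM the median ratios were 0.893, 0.839 and 0.861. Ratios below 1 were found for 126 of 128, 75 of 77 and 73 of 76 chosen genes, or 98.4, 97.4 and 96.1%, against 66.6, 68.8 and 67.5% of all genes in the range. Pair 1 showed the shallowest median, both among the chosen genes and over all genes of the same control CPM. Leaving it out admitted the most genes.

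**Figure D3:**
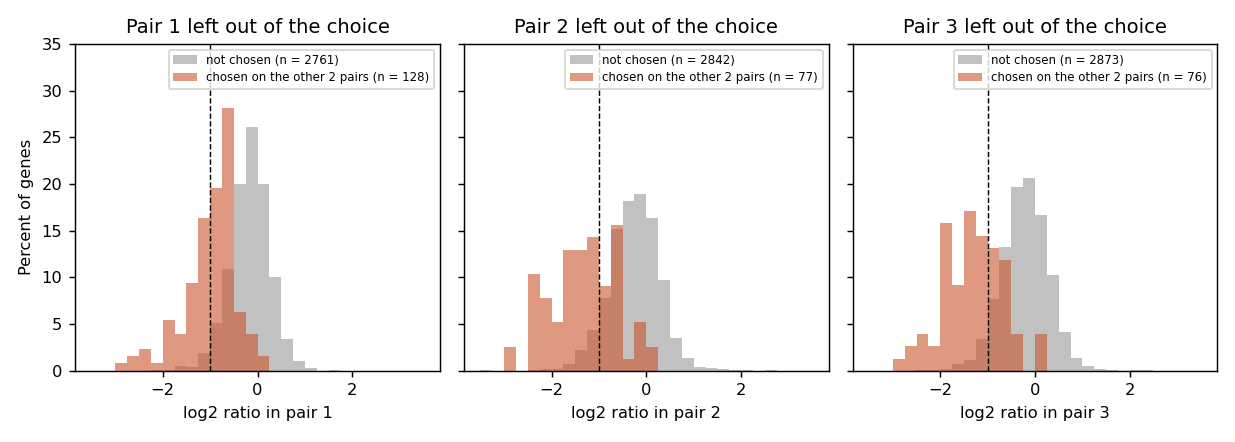
Distribution of the log2 ratio of Tet2/Tet3 to control CPM (horizontal axis) in each left-out pair, as a percent of genes (vertical axis). Orange bars are genes chosen by the rule on the other 2 pairs and grey bars all other genes at 1 to under 10 CPM in those controls; the dashed line marks a ratio of 0.5, which 40.6, 66.2 and 67.1% of the chosen genes reach.

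Pair 1 was also the shallowest among the members themselves, as a description. The median ratio of the 52 was 0.384 in pair 1, 0.330 in pair 2 and 0.347 in pair 3. The shallowest of a member's 3 falls was in pair 1 for 27 members, in pair 2 for 10 and in pair 3 for 15. A member's largest pair ratio was a median of 1.40 times its smallest, under 1.5 times for 33 members and at least 2 times for 5. The 191 genes of 10 CPM or more had medians of 0.390, 0.294 and 0.306 in the 3 pairs, so pair 1 was the shallowest there as well.

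Levels of the members also differed between replicate numbers, which the rule does not compare. In edgeR's quasi-likelihood F test of replicate number, in a model with group over all 13221 genes, 18 of 52 members (34.6%) were called at an adjusted p under 0.05 (Benjamini-Hochberg, 6 libraries). The background was 46.3% of all tested genes, and 44.8% of the 2885 tested other genes at 1 to under 10 CPM. In this fit the share among the members was thus not above the background, though the order moved with the setting, as given in the last section. Fewer reads in the Tet2/Tet3 libraries give the members less precision than those other genes, and the part of this in the difference was not tested.

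All 18 called members had the same highest replicate in both groups, which was replicate 1 for 13 of them. The test favours genes whose replicates agree across the groups. The highest replicate was the same in both groups for 1145 of the 1291 other called genes at 1 to under 10 CPM (88.7%). It was replicate 1 for 625 of those 1291, and for 97 of the 114 called genes among the 191 of 10 CPM or more. Over all 52, replicate 1 was the highest control for 33 members and the highest Tet2/Tet3 library for 32, while replicate 2 was the lowest for 30 and 28. Among the other 2894 genes at 1 to under 10 CPM, replicate 1 was highest for 43.8% in the controls and 47.8% in the Tet2/Tet3 group, beside 63.5 and 61.5% of the members. The 191 genes of 10 CPM or more lay at 70.2 and 77.5%. These shares were not tested against each other.

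Replicate 1 exceeded replicate 2 by a median of 1.25-fold over the members in the controls and 1.36-fold in the Tet2/Tet3 libraries, with 0.1 CPM added. It was lower in replicate 2 in both groups for 33 members, higher in both for 11 and mixed for 8, or 63.5% lower and 21.2% higher. Of the other 2894 genes at 1 to under 10 CPM, 48.4% were lower and 32.4% higher in both groups, with medians of 1.05 and 1.12-fold. In 6 members control replicate 1 was at least 2-fold above control replicate 2, and in 5 of these Tet2/Tet3 replicate 1 was at least 2-fold above Tet2/Tet3 replicate 2. No member had a 2-fold difference the other way in the controls. The closest had a ratio of replicate 1 to replicate 2 of 0.507 there. In the Tet2/Tet3 libraries its ratio was 0.360, more than a 2-fold difference the other way. These counts are given for the members only, without a share over other genes. The rule ties the libraries of a pair only through an upper limit on their ratio, so the likeness between the groups is partly bound to it. Across the 52 members the log2 contrast in the controls and in the Tet2/Tet3 libraries correlated at r = 0.80, and at r = 0.92 across the other 2894 genes; genes are not independent replicates, and all points come from the same 4 libraries.

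**Figure D4:**
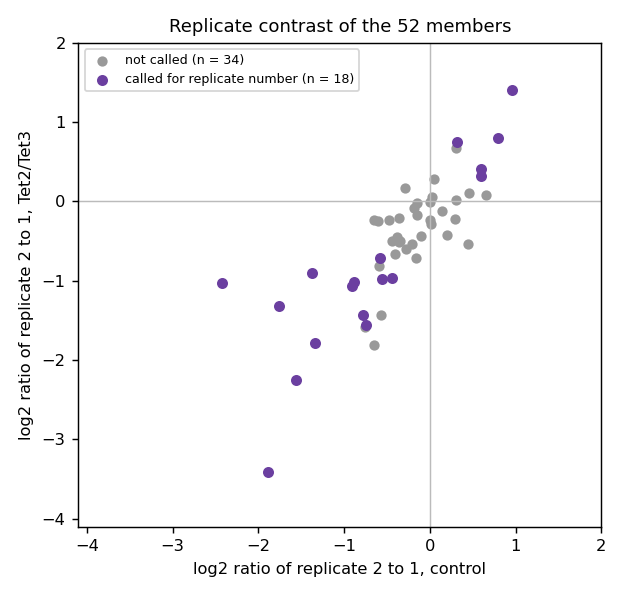
The log2 ratio of replicate 2 to replicate 1 of each member, with 0.1 CPM added, in the control libraries (horizontal axis) and the Tet2/Tet3 libraries (vertical axis). Purple points are the 18 members called for replicate number and grey points the other 34; 33 members lie below 0 on both axes, with replicate 2 below replicate 1 in both groups.

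The spread between libraries was set beside that of other genes of the same control CPM. The median coefficient of variation between controls was 17.5% for the members and 20.5% for the other 2894 genes. Between Tet2/Tet3 libraries it was 30.4 and 23.2%. The 191 genes of 10 CPM or more had medians of 12.0% between controls and 23.0% between Tet2/Tet3 libraries. The wider spread in the Tet2/Tet3 group was thus not particular to the scarce members. Counting error grows as the reads of the members fall, and its part in the higher spread was not tested.

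Members were scattered through the identifier series, whose 11 letter blocks each held at least 1. The K block held 12 members, or 23.1%, and 19.5% of all genes at 1 to under 10 CPM. The I block held 6, or 11.5% against 6.99%, and the E block 1, or 1.92% against 6.82%. No 2 members had consecutive numbers, and 4 of 52 (7.69%) lay within 20 numbers of another member, against 8.64% of the other 2894 genes. Whether the series follows the genome is not given in the sources used here.

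Of the 104 genes with the number just before or after a member, none of them a member, 55 were tested. The group-only edgeR fit called 2 of them lower (3.64%) and 4 higher (7.27%), where 5.48% and 6.01% of all tested genes were called. Their median log2 fold change was -0.03, beside -0.01 over all tested genes. With the replicate block, 27.3% were called lower and 25.5% higher, against 23.8% and 23.4% of all tested genes. In both fits the shares lay near the background.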

How the data were processed

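Poly(A) RNA of 50 embryos per sample was made into stranded libraries, per the labels' protocols. Each deposited file holds the raw read counts of 1 library by gene identifier, as whole numbers. Among the tools in the submitters' processing notes are STAR 2.5.4b and featureCounts 1.5.1. The genome build, annotation, strand setting and treatment of multiply mapping reads are not given in the sources used, so overlapping, antisense and near-identical genes may share or lose reads. Of the 28165 identifiers, 0 matched the RefSeq gene table of UCB_Xtro_10.0, so the gene lists by symbol were not analysed here.

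Groups came from the sample titles. Members and lists were chosen with earlier results of these data known. Tests used edgeR 4.0.16 in R 4.3.3 with filterByExpr (minimum count 10), TMM factors, glmQLFit, glmQLFTest and Benjamini-Hochberg adjustment. Group alone was the model for the Morpholino contrast, and group with replicate number for the replicate test. Standard errors derive from the F statistic. The 2 named members are the deepest falls among called members with separate groups. Same-numbered libraries deviated together from their group means over the 13221 tested genes, at r = 0.86, 0.88 and 0.75 (log2 of TMM-scaled CPM plus 0.5), so the numbers were taken as pairs; the labels do not say what a pair shares. Libraries of a group differed well beyond counting noise (chi-square per degree of freedom 20.2 to 77.6). Alternatives were the replicate block, DESeq2 1.42.0, RLE factors, keeping all genes with a count or those at 1 CPM in 3 libraries, a pseudocount of 0.5 or 1 CPM, and left-out libraries. The identifier distance of 20, the mirror rule and the counting intervals were added after the data were seen. The tests were checked on simulated data. There the replicate-number test made more false calls than its threshold allows, so its calls are read against their background only. The simulated spread came from a fit with the replicate block. The group-only test was thus not checked at the wider spread it meets in these libraries.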

Additional observations from a re-analysis of the deposited data

How the results depend on the processing

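The number of members depended on the form of the rule. It was 29 with a pseudocount of 0.5 CPM and 17 with 1 CPM, all among the 52, as the larger pseudocount raises every ratio of a scarce gene. It was 37 with TMM or RLE factors. Requiring every Tet2/Tet3 library to be at 0.5 or less of every control left 21. Applying the rule without replicate 1, 2 or 3, each time with fewer conditions, gave 76 to 128 genes, the highest without replicate 1.

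The share of genes at 0.5 or less in a left-out pair stayed within 1.5 times its value under both pseudocounts and both scalings, at 40.6 to 45.2% for pair 1, 66.2 to 85.7% for pair 2 and 64.8 to 71.8% for pair 3.

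Leaving out 1 library gave 4 to 42 members called lower against 38, while 85 to 1323 of all genes were called lower against 724; all 52 kept a negative log2 fold change in those 6 fits. RLE factors, no filter, the filter of 1 CPM and DESeq2 gave 35 to 39 members; DESeq2 gave 38, with 1372 of all genes called lower. DESeq2 gave no adjusted p for Xetro.G00402. With the replicate block the count was 52. The block moved the percent of neighbouring identifiers called lower from 3.64 to 27.3, and of all genes from 5.48 to 23.8. In the replicate-number test DESeq2 called 11 members against 18 (39.0% of all genes against 46.3%; the cause was not tested), and leaving out 1 library gave 15 to 22 (37.9 to 50.1%). In the same test, edgeR without a filter called 22 of the 52 members, against 33.7% of all genes. Leaving out control replicate 3 also gave 22 of 52, against 40.2%. In these settings the members' share lay above that of all genes. Without the group term edgeR called 0 members (0 at an unadjusted p under 0.05) and 2.75% of all genes, as the group difference then counts as error. Depth limits the scarcest members: 6 had under 10 counts in a Tet2/Tet3 library.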
